A study of Mus musculus with 15 samples.

Results

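The 10 immediate early genes described here were followed in hippocampal RNA, namely Fos, Fosb, Junb, Egr1, Egr4, Npas4, Nr4a1, Arc, Dusp1 and Ier2. They were taken by symbol, as 10 of the 55401 genes in the deposited count files, and all 10 passed the filter on low counts. The samples were 15 hippocampi, each a single library from a female mouse. The study's methods give an age of 18 to 20 months without saying at which stage, and its discussion gives a higher age for the mice used in spine counting, so the age at tissue collection is not certain. Tg2576 mice (genotype label Tg2576 +/+) carry a human amyloid precursor protein (APP) transgene with the Swedish mutation, driven by the hamster prion protein promoter, and WT littermates have the label Tg2576 -/-. Mice received vehicle (sesame oil) or docosahexaenoic acid (DHA, an omega-3 fatty acid) at 450 mg/kg daily for 5 weeks. Each of the WT vehicle, WT DHA and Tg2576 vehicle groups held 4 mice, and 3 mice were Tg2576 with DHA.

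Immediate early genes are transcribed within minutes of a stimulus and need no new protein synthesis for it. In neurons, calcium entry through NMDA receptors and L-type channels activates kinases that phosphorylate factors already bound at these genes, such as CREB and SRF with its partner ELK1. Many of the products are themselves transcription factors, others act at the synapse or shut the kinase signal off, and in the hippocampus the whole group is widely used as a readout of recent neuronal activity. Their RNA is short-lived, so the level at tissue collection reflects the hours before death. The time between the last handling or behavioural session and tissue collection is not given in the sources used here.

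The letters upstream of these genes are shown first because CREB binds the cyclic AMP response element (CRE), an element found at many genes of this class. RefSeq windows (GRCm38.p6) were used for 7 of the 10 genes, and the 250 bases before the RefSeq start were searched on both strands. Of these, 6 are printed 5′ to 3′ on the strand of the gene, without the bases that the authors' annotation places in an exon. Capitals mark every match to the searched motifs. These were the CRE (TGACGTCA), its core (TGACG, or CGTCA on the other strand), the EGR site (GCGGGGGCG), the AP-1 site (TGANTCA), the TATA box (TATAAA) and the CArG box bound by SRF.
Fos: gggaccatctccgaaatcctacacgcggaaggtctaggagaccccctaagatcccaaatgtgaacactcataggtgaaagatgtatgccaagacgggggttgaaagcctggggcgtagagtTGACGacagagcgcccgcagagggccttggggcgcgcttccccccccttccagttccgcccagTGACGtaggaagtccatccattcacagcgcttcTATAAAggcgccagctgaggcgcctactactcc
Fosb: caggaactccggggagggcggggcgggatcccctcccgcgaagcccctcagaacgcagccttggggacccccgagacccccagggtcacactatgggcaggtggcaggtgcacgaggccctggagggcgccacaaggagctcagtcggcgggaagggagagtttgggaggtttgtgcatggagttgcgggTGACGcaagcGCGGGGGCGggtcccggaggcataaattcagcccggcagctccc
Junb: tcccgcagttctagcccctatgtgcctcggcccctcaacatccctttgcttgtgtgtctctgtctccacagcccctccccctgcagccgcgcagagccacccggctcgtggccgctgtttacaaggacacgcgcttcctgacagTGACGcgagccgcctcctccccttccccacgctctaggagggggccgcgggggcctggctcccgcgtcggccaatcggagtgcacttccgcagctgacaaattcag
Egr4: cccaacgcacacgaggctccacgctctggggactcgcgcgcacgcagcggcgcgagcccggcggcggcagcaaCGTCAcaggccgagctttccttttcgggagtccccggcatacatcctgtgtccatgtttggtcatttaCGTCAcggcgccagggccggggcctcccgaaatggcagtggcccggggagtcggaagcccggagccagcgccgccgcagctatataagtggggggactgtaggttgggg
Nr4a1: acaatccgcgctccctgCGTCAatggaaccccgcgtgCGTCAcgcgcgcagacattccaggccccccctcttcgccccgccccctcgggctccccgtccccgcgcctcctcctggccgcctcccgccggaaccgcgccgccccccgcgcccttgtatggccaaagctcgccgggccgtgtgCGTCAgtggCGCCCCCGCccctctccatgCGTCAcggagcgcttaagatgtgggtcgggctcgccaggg
Dusp1: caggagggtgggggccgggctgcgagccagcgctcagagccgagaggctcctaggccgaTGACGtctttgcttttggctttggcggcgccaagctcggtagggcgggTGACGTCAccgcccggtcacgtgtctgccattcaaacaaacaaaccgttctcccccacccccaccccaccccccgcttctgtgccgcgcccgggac
They lie at chr12:85473640-85473889 (Fos, + strand), chr7:19310052-19310295 (Fosb, − strand), chr8:84978749-84978998 (Junb, − strand), chr6:85513590-85513839 (Egr4, − strand), chr15:101266596-101266845 (Nr4a1, + strand) and chr17:26508520-26508722 (Dusp1, − strand).

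The CRE core was present in all 7 windows, Npas4 included, against 19.8% of the 27025 genes with a window. All 250 bases of the Npas4 window lie in an exon of the authors' annotation, so this window is not upstream of the gene as counted. Exon bases also made up 47 bases of the Dusp1 window and 6 of the Fosb window. The Nr4a1 and Dusp1 windows lie within the span of the gene as counted. They are upstream of the RefSeq start, but not of the whole counted gene. Nr4a1 held 4 matches to the core. The complete CRE was found in Dusp1, from base -143 to base -136 before the start, and in 1.77% of all genes, and it contains the core on both strands. The EGR site, bound by the products of Egr1 and Egr4, was found in Fosb and Nr4a1 and in 2.93% of all genes. TATAAA was found in Fos, as in 14.3% of all genes. None of the 7 windows held AP-1 letters (7.82% of all genes) or a CArG box (1.62%) within these 250 bases. Arc, Egr1 and Ier2 were not among these 7, and nothing is reported here of their motifs. Any member window on chromosome 18, where Egr1 lies, was left out of the 7. The shares over all genes were taken without this exclusion. These matches describe letters in a window, and no binding was measured here.

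**Figure D1:**
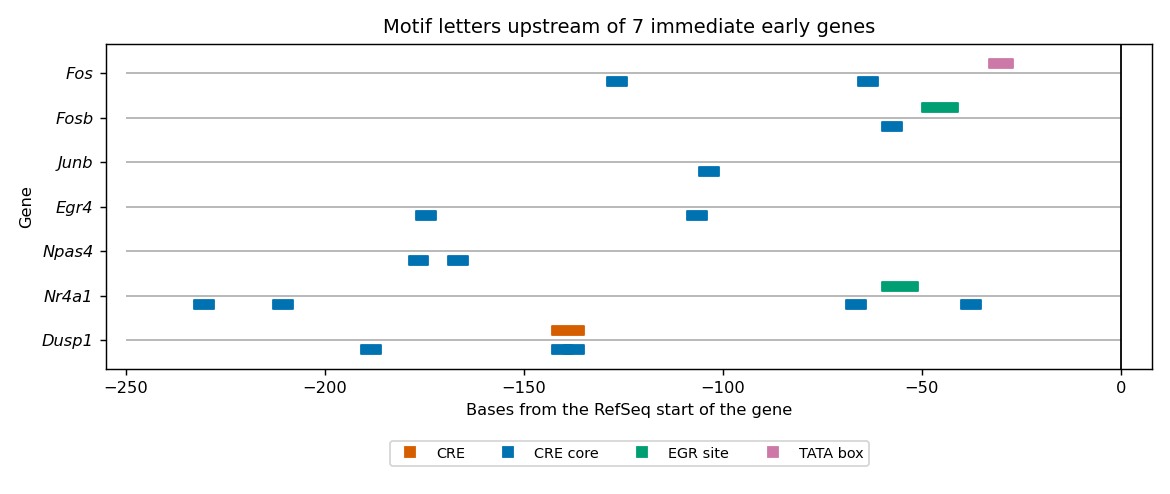
Positions of motif letters in the 250 bases before the RefSeq start of 7 immediate early genes, with distance from the start in bases on the x axis and 1 line per gene. All 7 lines carry at least 1 match to the CRE core (blue), the complete CRE (orange) lies in Dusp1, the EGR site (green) in Fosb and Nr4a1 and the TATA box (pink) in Fos. The whole Npas4 window lies in an exon of the authors' annotation, and the Nr4a1 and Dusp1 windows lie within the span of the counted gene.

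Total counts ranged from 17372864 to 46596489 per mouse, and mitochondrial genes took 1.92 to 3.38% of them. App, which also collects transgene reads similar to the mouse sequence, was at 1571 to 1786 counts per 1000000 (CPM) in the 8 WT mice and at 2075 to 2785 CPM in the 7 Tg2576 mice, so every library matched its genotype label. Markers of dentate granule cells (8 genes, summed CPM of 353 to 535), CA1 (6 genes, 626 to 891) and CA3 pyramidal cells (6 genes, 725 to 1023) were detected in every mouse. Choroid plexus markers (6 genes) varied from 61.2 to 5810 summed CPM between mice and were at 3096 or more in all 3 Tg2576 DHA mice. In bulk tissue, fewer active cells and less RNA per cell cannot be told apart.

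Within a gene, levels are TMM-scaled CPM, and between genes they are CPM per kilobase of exon (CPM/kb), the mean of 15 mice ± SD. Arc was highest at 65.9 ± 25.6 CPM/kb, followed by Junb (59.4 ± 15.5 CPM/kb), Egr1 (31.6 ± 8.46 CPM/kb) and Nr4a1 (29.2 ± 8.50 CPM/kb). Egr4 stood at 14.8 ± 3.30 CPM/kb and Fos at 7.80 ± 3.36 CPM/kb. The lowest levels were those of Dusp1 (6.87 ± 2.12 CPM/kb), Ier2 (6.35 ± 2.59 CPM/kb), Npas4 (5.07 ± 1.98 CPM/kb) and Fosb (2.12 ± 0.54 CPM/kb). Neighbours in this order were not always separated. Arc was above Junb in 10 of 15 mice, Egr1 above Nr4a1 in 9, Fos above Dusp1 in 10, Dusp1 above Ier2 in 10 and Ier2 above Npas4 in 12. The other 4 steps of the order held in all 15 mice. Raw counts ranged from 118 reads for Fos in WT vehicle mouse 2 to 12422 for Arc in Tg2576 vehicle mouse 2.

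Fos, Fosb and Junb encode basic leucine zipper proteins that pair to form the transcription factor AP-1. Fos (chr12:85473890-85477273) was at 13.4, 5.70, 25.2 and 24.1 CPM in WT vehicle mice 1 to 4, at 16.5, 20.5, 17.3 and 19.7 CPM in WT DHA mice, at 14.97, 40.6, 12.4 and 13.6 CPM in Tg2576 vehicle mice and at 20.1, 12.99 and 18.03 CPM in Tg2576 DHA mice. It had the widest range of the 10 genes, 7.12-fold from WT vehicle mouse 2 to Tg2576 vehicle mouse 2, and all groups overlapped. Fosb (chr7:19302696-19310051), whose truncated product ΔFOSB accumulates with repeated stimulation, was at 10.9, 8.79, 12.4 and 13.6 CPM in WT vehicle, 14.2, 19.6, 13.2 and 14.3 CPM in WT DHA, 12.4, 20.6, 8.33 and 10.5 CPM in Tg2576 vehicle and 11.2, 14.2 and 14.2 CPM in Tg2576 DHA mice. WT vehicle and WT DHA mice overlapped narrowly, since the highest WT vehicle mouse was above the lowest WT DHA mouse. Junb (chr8:84976910-84978718) was at 79.1, 79.8, 115 and 114 CPM in WT vehicle, 119.6, 92.1, 123 and 171 CPM in WT DHA, 139, 142, 80.2 and 96.7 CPM in Tg2576 vehicle and 95.5, 72.4 and 92.0 CPM in Tg2576 DHA mice. Junb was the sole gene whose highest mouse was not Tg2576 vehicle mouse 2 but WT DHA mouse 4, and WT DHA mouse 2 was the sole WT DHA mouse within the Tg2576 DHA range.

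Egr1 and Egr4 encode zinc finger transcription factors of the EGR family, and Egr1 is needed for late phases of synaptic potentiation in the dentate gyrus. Egr1 (chr18:34859823-34864984) was at 123, 101, 116 and 141 CPM in WT vehicle, 157, 139, 159 and 167 CPM in WT DHA, 106, 253, 96.8 and 164 CPM in Tg2576 vehicle and 139.9, 131 and 133 CPM in Tg2576 DHA mice. The 3 Tg2576 DHA mice lay within 1.07-fold of each other, against 2.61-fold among Tg2576 vehicle mice. Egr4 (chr6:85511121-85513589) was at 22.0, 23.0, 39.0 and 33.1 CPM in WT vehicle, 33.6, 32.2, 28.9 and 42.5 CPM in WT DHA, 39.1, 42.8, 19.4 and 28.2 CPM in Tg2576 vehicle and 29.7, 29.6 and 33.5 CPM in Tg2576 DHA mice. The WT vehicle mice separated into lower and higher values for Egr4, with mice 1 and 2 below mice 3 and 4, and each of the other groups overlapped them.

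Npas4 and Nr4a1 encode transcription factors of other families. NPAS4, a basic helix-loop-helix PAS protein, is induced by calcium entry in neurons and controls inhibitory synapse number. Npas4 (chr19:4984355-4990316) was at 23.0, 12.8, 21.5 and 24.6 CPM in WT vehicle, 23.3, 18.2, 18.1 and 17.2 CPM in WT DHA, 19.1, 43.4, 10.6 and 30.6 CPM in Tg2576 vehicle and 24.1, 12.96 and 14.9 CPM in Tg2576 DHA mice. The Tg2576 vehicle mice held both the highest and the lowest value of all 15, a 4.11-fold range. Nr4a1, an orphan nuclear receptor also called Nur77 (chr15:101254269-101274795), was at 82.7, 63.4, 93.5 and 112 CPM in WT vehicle, 132, 88.5, 124 and 151 CPM in WT DHA, 109, 166, 76.4 and 86.6 CPM in Tg2576 vehicle and 102, 68.3 and 84.0 CPM in Tg2576 DHA mice. In 3 of the 4 WT DHA mice, Nr4a1 was above every WT vehicle and every Tg2576 DHA mouse, whereas WT DHA mouse 2 lay among them.

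Arc, Dusp1 and Ier2 act outside these families. ARC is a synaptic protein that promotes AMPA receptor endocytosis, and its RNA travels to active dendrites. Arc (chr15:74669083-74672570) was at 177, 129, 190.1 and 235 CPM in WT vehicle, 268, 170.3, 234 and 298 CPM in WT DHA, 220.1, 401, 137 and 139 CPM in Tg2576 vehicle and 163, 91.6 and 169 CPM in Tg2576 DHA mice. All 3 Tg2576 DHA mice were below all 4 WT DHA mice, by a narrow margin between Tg2576 DHA mouse 3 and WT DHA mouse 2. Dusp1, a phosphatase that switches off MAP kinases (chr17:26505590-26562128, with 11 of its 3311 exonic bases shared with Ergic1 on the other strand), was at 21.9, 9.76, 30.8 and 27.8 CPM in WT vehicle, 24.9, 21.5, 23.9 and 23.4 CPM in WT DHA, 28.2, 35.9, 13.998 and 16.6 CPM in Tg2576 vehicle and 28.6, 16.7 and 17.0 CPM in Tg2576 DHA mice. The WT DHA values sat inside the WT vehicle range, with a coefficient of variation of 6.19% against 41.2%. Ier2, which encodes a short nuclear protein (chr8:84661331-84662854), was at 6.56, 6.38, 13.3 and 9.26 CPM in WT vehicle, 10.6, 6.33, 9.20 and 13.9 CPM in WT DHA, 9.41, 19.9, 6.78 and 8.69 CPM in Tg2576 vehicle and 13.02, 5.76 and 5.96 CPM in Tg2576 DHA mice. No pair of groups separated for Ier2.

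**Figure D2:**
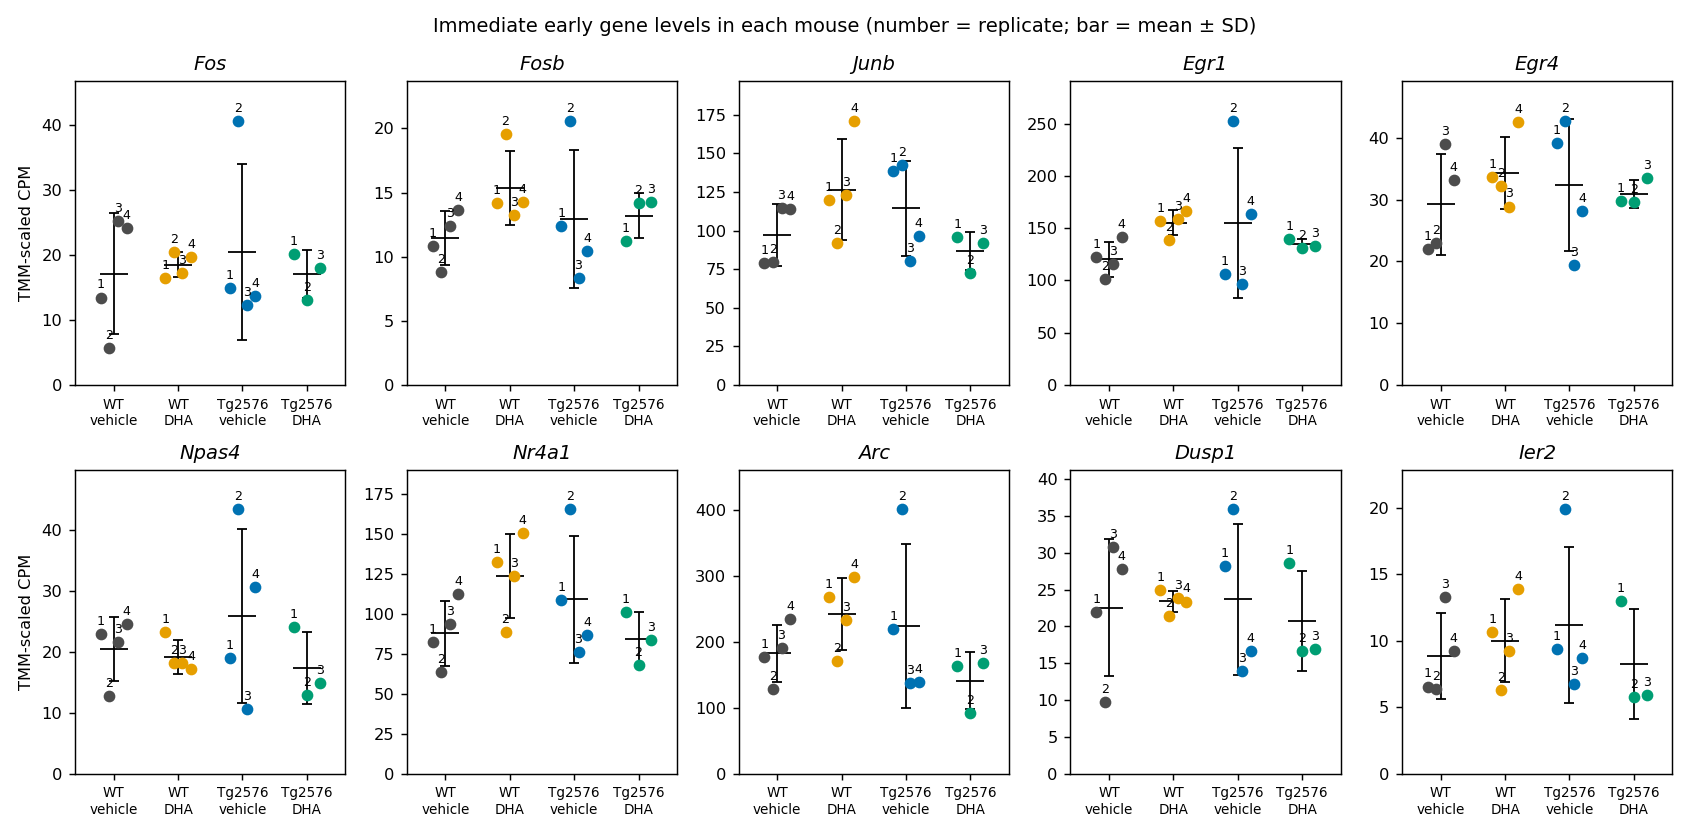
Level of each immediate early gene in every mouse, in TMM-scaled CPM on linear axes that start at 0, with 1 point per mouse marked by its replicate number and the group mean ± SD in black. Tg2576 vehicle mouse 2 is the highest point for 9 of the 10 genes, and the Tg2576 DHA mice lie below the WT DHA mice without overlap for Arc.

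For 19536 genes, edgeR's quasi-likelihood F test (two-sided) compared the groups, with Benjamini-Hochberg adjustment over all of them. An unadjusted p under 0.01, as the study used, counted as a call. The test over all 4 groups called 0 of the 10 immediate early genes, against 2.36% of all genes, with p from 0.110 for Junb to 0.956 for Dusp1. In each of the 4 pairwise comparisons and in the interaction, edgeR also called 0 of 10. So did limma-voom in all of these tests, and DESeq2 in all but the interaction. At an unadjusted p under 0.05 the counts were 0 of 10 for genotype under vehicle, 1 for genotype under DHA, 0 for DHA in either genotype and 2 for the interaction. Of all 19536 genes, 2100 passed 0.05 for genotype under vehicle, 1341 for genotype under DHA and 1001 for the interaction. For DHA, 1157 passed in WT mice and 618 in Tg2576 mice.

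Genotype was compared first under vehicle, where it asks whether the transgene alone shifts these genes. In Tg2576 vehicle mice all 10 genes were fitted above WT vehicle mice, with log2 differences from 0.07 for Dusp1 to 0.37 for Egr1 and a median of 0.28, against a median of 0.00 over all genes. None passed the threshold, which 3.09% of all genes did. The difference for Egr1 was 0.37 ± 0.23 (SE, 95% interval -0.12 to 0.85, adjusted p = 0.594), and that for Fos was 0.25 ± 0.44 (interval -0.71 to 1.22). No member separated between these groups (5.17% of all genes did). These positive values rested on Tg2576 vehicle mouse 2: without it, 3 genes were fitted higher and 7 lower, with a median of -0.07. The median was 0.17 without WT vehicle mouse 2, with 8 genes higher and 2 lower, and 0.44 without Tg2576 vehicle mouse 3. Markers of dentate granule cells (6 of 8 fitted lower in Tg2576 vehicle mice, 2 called) and of CA3 cells (5 of 6 lower, 2 called) moved with these groups, and their part in the result was not tested.

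Under DHA the same comparison of genotypes gave values of the other sign. All 10 genes were fitted lower in Tg2576 DHA than in WT DHA mice, from -0.12 for Fos to -0.78 for Arc, with a median of -0.21. Without Tg2576 DHA mouse 1 the median was -0.47, and without Tg2576 DHA mouse 2 it was -0.15, with 2 genes higher and 8 lower. None passed the threshold (1.75% of all genes). The lowest p was that of Junb, at -0.55 ± 0.23 (interval -1.03 to -0.06, adjusted p = 0.690). Without WT DHA mouse 2 the Junb difference was -0.67 and passed the threshold in edgeR, as 338 of 19393 genes did. Arc differed by -0.78 ± 0.38 (interval -1.60 to 0.04, adjusted p = 0.734) and Nr4a1 by -0.55 ± 0.26 (interval -1.11 to 0.01, adjusted p = 0.732). Arc was the 1 member of 10 without overlap between the groups, a separation that 8.55% of all genes showed, and its exact permutation p of 0.0571 was the smallest that 3 against 4 mice can give. Choroid plexus markers moved with these groups, at 3096 to 5144 summed CPM in Tg2576 DHA mice against 61.2, 148, 352 and 5810 in WT DHA mice, although 0 of the 6 genes were called. Microglial markers did too, with all 8 fitted higher in Tg2576 DHA mice (median log2 difference 0.50), 4 called and a summed level of 403 to 587 CPM against 315 to 398 CPM. Astrocyte markers were mostly fitted higher (6 of 7, 1 called). Most markers of dentate granule cells (5 of 8, 1 called), CA1 (4 of 6, 1 called) and CA3 cells (5 of 6, 0 called) were fitted lower. So were most markers of striatum (5 of 6, 0 called) and oligodendrocytes (5 of 7, 0 called). The part of these lists in the result was not tested.

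DHA was compared with vehicle within each genotype, and these comparisons share their mice with the genotype comparisons above. In WT mice 9 of the 10 genes were fitted higher with DHA and Npas4 lower (-0.10 ± 0.35), with a median of 0.30 against -0.01 over all genes. The median was 0.16 without WT DHA mouse 4, with 8 genes higher, and 0.20 without WT vehicle mouse 2, with 7 higher. None passed the threshold (1.38% of all genes). Nr4a1 differed by 0.49 ± 0.24 (interval -0.02 to 1.01, adjusted p = 0.861), Fosb by 0.42 ± 0.22 (interval -0.05 to 0.90) and Junb by 0.38 ± 0.21 (interval -0.06 to 0.83). Egr1 differed by 0.37 ± 0.23, and a fit of the WT mice alone called it in edgeR, at 0.37. That fit called 431 of 18061 genes, against 270 of 19536 in the main fit. Exact permutation over the 8 WT mice gave 0.0571 for Egr1, where 0.0286 is the smallest possible. No member separated (5.03% of all genes did). CA1 markers moved with these groups (5 of 6 fitted higher with DHA, 2 called). Markers of oligodendrocytes (7 of 7, 0 called), choroid plexus (6 of 6, 0 called) and CA3 cells (5 of 6, 0 called) were fitted lower with DHA. So were most markers of microglia (6 of 8, 1 called) and dentate granule cells (5 of 8, 1 called). The part of these lists in the result was not tested.

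In Tg2576 mice 9 of the 10 genes were fitted lower with DHA and Fosb higher (0.03 ± 0.24), with a median of -0.32. None passed the threshold (0.353% of all genes). Arc differed by -0.67 ± 0.38 (interval -1.49 to 0.15), Npas4 by -0.59 ± 0.38 (interval -1.41 to 0.24) and Junb by -0.40 ± 0.23 (interval -0.89 to 0.08), each with an adjusted p of 0.999. No member separated (3.2% of all genes did). Tg2576 vehicle mouse 2 again carried the sign: without it, 5 genes were fitted higher and 5 lower, with a median of 0.04. The median was -0.48 without Tg2576 DHA mouse 1 and -0.21 without Tg2576 DHA mouse 2. Summed choroid plexus markers were at 5144, 3284 and 3096 CPM in the Tg2576 DHA mice against 1166, 3156, 446 and 141 CPM in the Tg2576 vehicle mice, with 0 of 6 called. Oligodendrocyte markers were fitted lower with DHA for 6 of 7 genes, with 1 called. The part of either list in the result was not tested.

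The interaction asks whether the DHA difference in Tg2576 mice departs from that in WT mice. It was fitted below 0 for all 10 genes, from -0.24 for Dusp1 to -1.08 for Arc, with a median of -0.53. None passed the threshold (0.829% of all genes). Nr4a1 stood at -0.86 ± 0.35 (interval -1.62 to -0.10) and Junb at -0.79 ± 0.31 (interval -1.44 to -0.13), both with an adjusted p of 0.845. Arc stood at -1.08 ± 0.51 (interval -2.18 to 0.03). DESeq2 called both Nr4a1 (-0.87) and Junb (-0.80), and so did edgeR without Tg2576 vehicle mouse 3 (-1.001 and -0.92). Over all genes these fits called 247 of 19536 and 137 of 19532, against 162 of 19536 in the main fit. Without WT DHA mouse 2, edgeR called Junb (-0.91), and 213 of 19393 genes in all. Without Tg2576 vehicle mouse 2 the median was -0.15, with 2 genes above 0 and 8 below, and without WT vehicle mouse 2 it was -0.41, with 1 above and 9 below. In the interaction all 6 choroid plexus markers were fitted above 0 (0 called) and so were 7 of 8 microglial markers (1 called), whose part was not tested. The same mice enter all of these comparisons, so the 5 sets of signs are not separate observations.

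**Figure D3:**
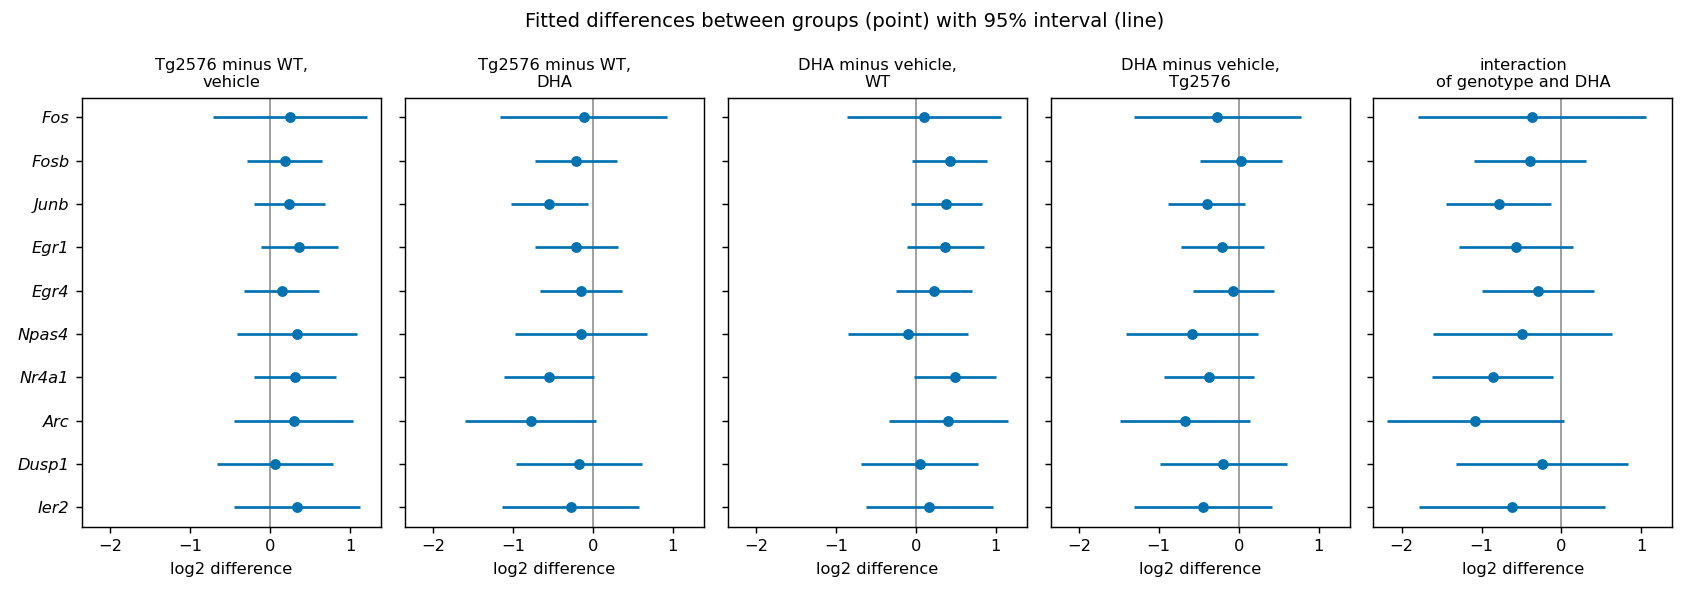
Fitted log2 differences of the 10 genes (points) with 95% intervals (lines) in 4 pairwise comparisons and the interaction, from the edgeR fit of 15 mice. Intervals cross 0 everywhere except for Junb under DHA and for Junb and Nr4a1 in the interaction.

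The spread between mice of a group was wide for every member. The pooled within-group SD of log2 CPM ranged from 0.34 for Junb to 0.68 for Fos, with a median of 0.44, against a median of 0.25 over all 19536 genes. Low counts raise this SD, so the comparison was repeated against the 10424 genes at or above the mean CPM of the lowest member, which had a median of 0.16. Each of the 10 genes had a wider spread than 94.7% or more of those genes, and Fos than 99.2%. Group by group, the coefficient of variation of Egr1 was 46.3% in Tg2576 vehicle mice, 13.9% in WT vehicle mice, 7.60% in WT DHA mice and 3.44% in Tg2576 DHA mice.

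The same mice were high or low for gene after gene. Tg2576 vehicle mouse 2 was above its group mean for all 10 genes, by 0.78 on average on the log2 scale, and was among the 2 highest of 15 for each. WT vehicle mouse 2 and Tg2576 vehicle mouse 3 were below their group means for all 10 genes, by -0.55 and -0.61 on average, and held the lowest value of 15 for 3 and 4 genes. Tg2576 DHA mouse 2 held the lowest value for the remaining 3 genes (Arc, Junb and Ier2). The WT DHA mice were the most even, with average deviations from -0.19 to 0.19. Total counts and the mitochondrial share of Tg2576 vehicle mouse 2 (30152880 and 3.19%) were within the range of the other mice.

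**Figure D4:**
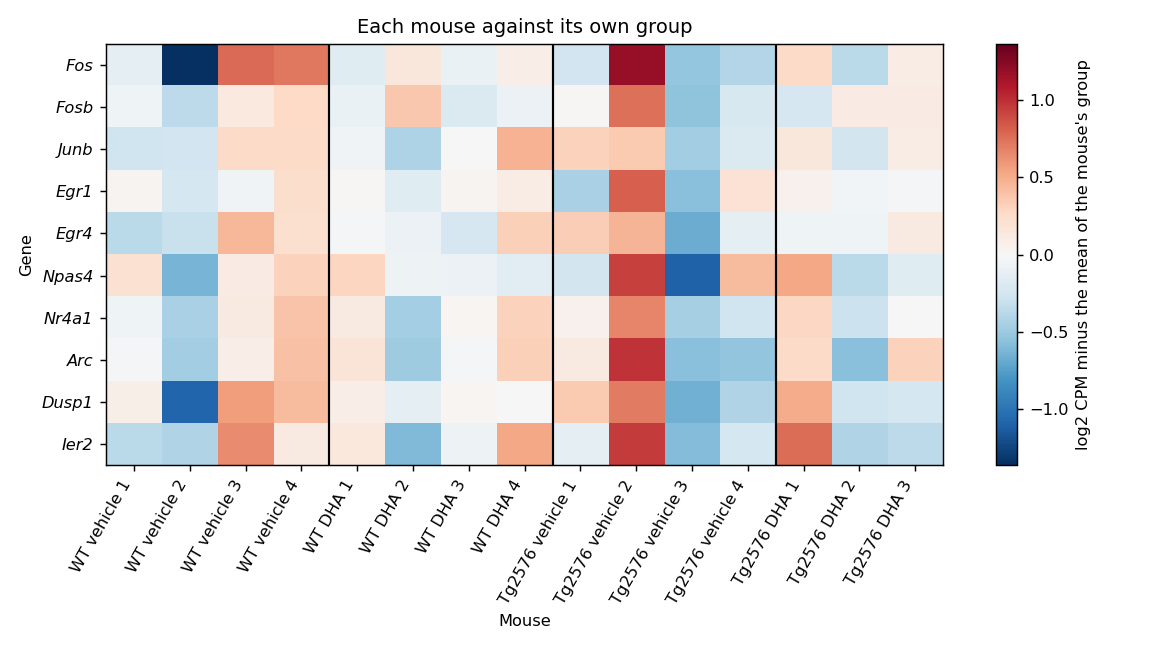
Log2 CPM of each gene (rows) in each mouse (columns) minus the mean of that mouse's group, in red above and blue below it, with black lines between groups. The column of Tg2576 vehicle mouse 2 is red for all 10 genes and the columns of WT vehicle mouse 2 and Tg2576 vehicle mouse 3 are blue for all 10.

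Co-variation was measured on these deviations, with group means removed, as Pearson's r over 15 mice for the 45 gene pairs. All 45 were positive, from 0.379 for Fosb and Ier2 to 0.956 for Arc and Nr4a1, with a median of 0.701. For each pair the mice were permuted within groups (82944 arrangements, exact, two-sided), and p was adjusted over the 45 pairs. Arc and Nr4a1 gave r = 0.956 and Spearman's rho = 0.889 (exact p = 3.6e-05 and 6.0e-05, adjusted 0.00163 and 0.00217). Without the 2 mice farthest from the median of Arc, r was 0.944. The other leading pairs were Fos with Dusp1 (r = 0.877, rho = 0.800), Junb with Nr4a1 (r = 0.875, rho = 0.871), Nr4a1 with Ier2 (r = 0.871, rho = 0.932) and Egr4 with Junb (r = 0.863, rho = 0.889), each still at 0.746 or more without the 2 farthest mice.

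Weaker pairs often involved Fosb or Egr1 and depended on a few mice. Egr1 and Egr4 had r = 0.50, and -0.08 without Tg2576 vehicle mice 2 and 3. Fosb and Ier2 fell from 0.379 to -0.17 and Egr1 and Fosb from 0.662 to -0.01 without the same mice. Over the 45 pairs, leaving out the 2 farthest mice for each left 42 positive with a median of 0.561. Leaving out WT vehicle mouse 2 and Tg2576 vehicle mice 2 and 3 together, which was chosen after seeing the data, left 31 positive, from -0.51 to 0.911, with a median of 0.413. Against the mean of the other 9 members, r was highest for Nr4a1 (0.924, above all 19526 other genes) and lowest for Fosb (0.674, with 91 other genes above it).

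**Figure D5:**
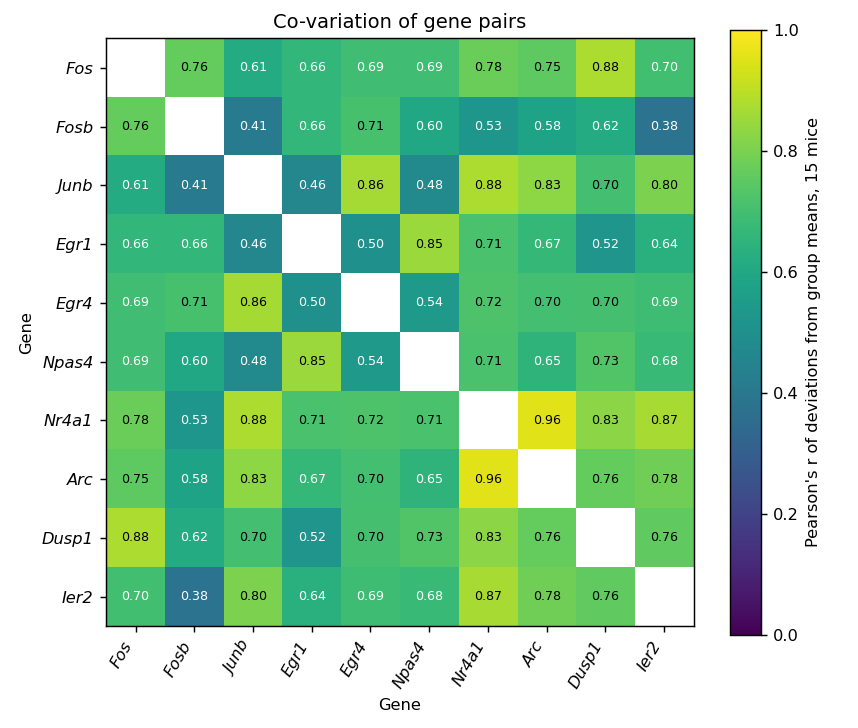
Pearson's r of the deviations from group means over 15 mice for the 45 pairs of immediate early genes, with 1 gene per row and column and colour from 0 to 1. Every pair is above 0, with the highest value between Arc and Nr4a1 (0.96) and the lowest between Fosb and Ier2 (0.38).

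Genes outside the 10 were ranked by r with the mean standardised deviation of the members, as a description over 15 mice without a test. The 10 highest were Bdkrb2 (0.888), Dact1 (0.878), 1700016P03Rik (0.876), 4932441J04Rik (0.864), Ccn1 (0.854), Gm17971 (0.845), Ccdc160 (0.839), Apold1 (0.837), Cmya5 (0.818) and Tob1 (0.814). Ccn1 is itself an immediate early gene that encodes a matricellular protein. Tob1 was the most abundant of them, at a mean of 28.6 CPM, whereas Gm17971 was at 0.61 CPM. A further 36 immediate early genes had been listed, of which 35 were tested. Among these, 12 of 35 (34.3%) had an r over 0.5, against 3.09% of 19526 genes, and the highest after Ccn1 were Btg2 (0.793), Egr2 (0.785), Trib1 (0.779), Sik1 (0.732) and Dusp5 (0.706). Homer1 (-0.22), Plk2 (-0.14), Nr4a3 (-0.04) and Jun (0.05) had values near or below 0. The summed CPM of the further list had r = 0.454 and rho = 0.243 with the members, and r = 0.077 without the 2 farthest mice.

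The group differences of the further list went both ways. In Tg2576 against WT vehicle mice 3 of 35 were called higher and 2 lower (3.09% of all genes were called in either direction), with a median of 0.00. The higher genes were Maff (1.90 ± 0.41), a small bZIP factor, Ccn1 (0.85 ± 0.23) and Ier3 (0.73 ± 0.20). The lower genes were Dusp4 (-0.65 ± 0.14), a MAP kinase phosphatase, and Ptgs2 (-0.52 ± 0.16), the inducible cyclooxygenase. Under DHA 0 of 35 were called between genotypes (1.75% of all genes). With DHA in WT mice 1 of 35 was called higher, Nr4a2 (0.53 ± 0.16), and 1 lower, Ptgs2 (-0.56 ± 0.16), against 1.38% of all genes, and in Tg2576 mice Nr4a2 was called higher (0.60 ± 0.17, against 0.353% of all genes). In the interaction 2 of 35 were called lower (0.829% of all genes), Arl4d (-0.89 ± 0.29) and Dusp5 (-0.70 ± 0.23). Adjusted p was 0.158 or more for all of these genes.

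The signalling genes upstream of the members mostly had a negative r with them across mice. Of 24 receptor, kinase and transcription factor genes, 4 had a positive r (16.7%, against 48.1% of all genes) and 0 an r over 0.5, with a median of -0.25. Their summed CPM had r = -0.40 and rho = -0.34, and r = -0.18 without the 2 farthest mice. The extremes were Prkaca (0.156), which encodes a catalytic subunit of protein kinase A, and Crebbp (-0.63), which encodes a CREB coactivator. In Tg2576 vehicle against WT vehicle mice 2 of 24 were called, both lower (3.09% of all genes). These were Grin2b (-0.49 ± 0.16, adjusted p = 0.309), an NMDA receptor subunit, and Camk4 (-0.49 ± 0.16, adjusted p = 0.292), a calcium-dependent kinase of CREB. With DHA in WT mice 1 of 24 was called (1.38% of all genes), Mapk3 (0.45 ± 0.14), which encodes ERK1 and was higher. Of 17 later activity-regulated effector genes, Crh (0.704) and Nptx2 (0.628) had an r over 0.5. Bdnf was called lower in Tg2576 vehicle mice (-0.46 ± 0.16), as 1 of 17 against 3.09% of all genes. Vgf was called lower in Tg2576 DHA than in WT DHA mice (-0.34 ± 0.11), as 1 of 17 against 1.75% of all genes. Both are secreted products of active neurons.

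Endothelial markers had a negative r with the members. All 8 had a negative r with the members, from -0.11 (Tek) to -0.68 (Ly6c1), and their summed CPM had r = -0.60 and rho = -0.70, with r = -0.61 without the 2 farthest mice. The sum was 226 CPM in Tg2576 vehicle mouse 3 and 209 CPM in WT vehicle mouse 2, where the members were low, but 188 CPM in Tg2576 vehicle mouse 2, near the middle of the range of 151 to 226 CPM over all mice. No endothelial marker was at 0 in every mouse, and their part in the pattern of the members was not tested. Summed striatal markers had r = 0.44 and rho = 0.51, with r = 0.56 without the 2 farthest mice, and summed choroid plexus markers r = 0.35 and rho = 0.28, with r = 0.49 without them and a positive r for all 6 genes. Their part was not tested either. Neocortical markers had r = -0.08, but -0.49 without the 2 farthest mice. Summed markers of thalamus (r = 0.02), dentate granule (r = 0.10), CA1 (r = -0.15) and CA3 cells (r = -0.07), microglia (r = 0.05), astrocytes (r = 0.00) and oligodendrocytes (r = 0.09), total counts (r = 0.18) and the mitochondrial share (r = 0.06) had values between -0.15 and 0.18.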

How the data were processed

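The deposited values are raw read counts per gene, counted by the authors on GENCODE M25 (GRCm38) with featureCounts 1.6.0 after alignment with STAR 2.6.1c (versions from the submitters' processing notes). Per the file headers no strand setting was used. The labels name a SMARTER mRNA-Seq kit, the study's methods a TruSeq Stranded mRNA kit. Where nothing says that replicates were collected separately, p-values measure the spread between these mice.

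Counts were fitted in R 4.3.3 with edgeR 4.0.16 (filterByExpr with a minimum count of 10, 19536 genes kept, TMM factors from 0.961 to 1.03, robust quasi-likelihood F test, 1 coefficient per group, all 15 mice). SEs are the log2 difference divided by the square root of F. Log2 CPM used a prior count of 2. Exact permutation tests were two-sided and compared samples or, for gene pairs, permuted mice within groups. Gene symbols came from a GENCODE table matched without version numbers, for 55141 genes. Alternatives were DESeq2 1.42.0, limma-voom (limma 3.58.1), no TMM factors, other count filters, the 2 groups compared alone, a replicate block, no robust option, other thresholds and each mouse left out. The fit was tested on simulated data. Figures and correlations used Python 3.11.15.

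The members, gene lists, thresholds and tests were chosen with earlier results of these data known. Named beyond the members were at most 3 called genes per list and comparison by lowest p, and the 10 genes most like the members. Ier3, Ptgs2 and the list genes named for their correlation were named after their values were seen. Behaviour and protein assays were not analysed here.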

Additional observations from a re-analysis of the deposited data

Results flagged for a closer look

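Each of the 10 genes was examined in the 3 groups of 4 mice for a mouse far from the others, by Dixon's criterion, and chance marks about 1 in 20 such groups. Among these 30 sets of values 3 were marked. Fos was at 40.6 CPM in Tg2576 vehicle mouse 2, against 12.4 to 14.97 CPM in the other mice of its group. Fosb was at 19.6 CPM in WT DHA mouse 2, against 13.2 to 14.3 CPM in the others. Npas4 was at 23.3 CPM in WT DHA mouse 1, against 17.2 to 18.2 CPM. The first belongs to the mouse that was high for all 10 genes. The mice of the other 2 marks were not high for all 10 genes. WT DHA mouse 2 was below its group mean for 8 of the 10 genes, and WT DHA mouse 1 was above it for 6.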

How the results depend on the processing

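The count of 0 immediate early genes called held for genotype under vehicle, DHA in Tg2576 mice and the test over 4 groups in every alternative run. At an unadjusted p under 0.05 the counts were 1 for genotype under DHA and 2 for the interaction, against 1341 and 1001 of all 19536 genes. DESeq2 called 2 in the interaction, where it called 247 of 19536 genes in all. The fit of WT mice alone called 1 (Egr1) for DHA in WT mice, and 431 of 18061 genes in all. Leaving out 1 mouse at a time gave 0 to 1 for genotype under DHA and 0 to 2 for the interaction. The causes were not tested. Of the log2 differences of single genes, 387 of 390 under other settings kept sign and side of the threshold, as did 718 of 750 without 1 mouse, where 28 uncalled values changed sign. The median pair correlation, 0.701, ranged from 0.589 (without Tg2576 vehicle mouse 2) to 0.745 without 1 mouse and was 0.413 without 3 mice. Over all genes, deviations of same-numbered mice had r from -0.24 to 0.213 (21 pairs, median 0.01, against 0.00 for differently numbered mice). Correlations of this kind cannot show whether or not the numbers pair the mice. With the replicate block 0 of 10 genes were called in each test, with a median of 0.28 for genotype under vehicle. With 3 or 4 mice a group, the 95% intervals of the log2 differences between groups reached -1.60 for Arc, -1.41 for Npas4 and -1.31 for Fos and for Ier2, and -2.18 for Arc in the interaction, so differences of up to that size lie within these intervals.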

Other observations

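Genes that respond to glucocorticoids and to heat shock were listed as well, and their part in the pattern of the immediate early genes was not tested. Of 14 glucocorticoid-responsive genes, 12 were fitted higher in Tg2576 vehicle than in WT vehicle mice (median log2 difference 0.27) and 2 were called (3.09% of all genes), Cdkn1a (1.58 ± 0.42), a cell cycle inhibitor, and Mt2 (0.50 ± 0.16), a metallothionein. With DHA in Tg2576 mice 13 of the 14 were fitted lower (median -0.22), and in the interaction 12 of the 14 were fitted below 0 (median -0.32), with 0 called by edgeR in either. The summed level of the list was 1344 CPM in Tg2576 vehicle mouse 1 and between 562 and 799 CPM in the other 14 mice, with 703 CPM in Tg2576 vehicle mouse 2. Across the 15 mice 0 of the 14 genes had an r over 0.5 with the immediate early genes, and the sum had r = -0.01. Of 8 heat shock genes, all were fitted higher with DHA in WT mice (median 0.12) and 7 with DHA in Tg2576 mice (median 0.07). None were called in any comparison by edgeR, and their sum had r = 0.39, or -0.09 without the 2 farthest mice.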
